A study of Saccharomyces cerevisiae with 24 samples.

Results

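The 37 nuclear genes described here encode subunits of the mitochondrial respiratory chain and of the ATP synthase of Saccharomyces cerevisiae. They were taken by gene name from a fixed list: 4 subunits of complex II, 9 of complex III, 2 isoforms of cytochrome c, 9 subunits of complex IV and 13 of the ATP synthase. All 37 were found by name among the 7126 genes of the count table, their locus tags matched the R64 annotation, and all 37 passed the filter on low counts that left 6089 genes for testing. The libraries came from polyA RNA of 2 haploid MATa strains of the BY4741 background. The crz1 cnb1 strain lacks the transcription factor Crz1 and the regulatory subunit of calcineurin, the calcium-activated phosphatase that acts on Crz1, through crz1delta::LEU2 and cnb1delta::KanMx. The crz1 strain carries crz1delta::LEU2 alone. Both strains also carry his3delta1, ura3delta0, leu2delta0 and lys2delta0 and, on chromosome VI, a HYG-TEFp-GFP(Y66F) insertion. Cells grew in synthetic medium with ammonium chloride and, once 200 mM CaCl2 had been added, were diluted at 12 h intervals so that growth stayed logarithmic. For each strain there are 3 libraries of untreated cells, called 0 h, and 3 at each of 12, 48 and 72 h of CaCl2, which makes 8 groups. There was no untreated library at the later times, so a change against 0 h cannot be told apart from a change with time in culture. No wild-type strain entered these comparisons.

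The respiratory chain passes electrons from dehydrogenases such as complex II (succinate dehydrogenase) through ubiquinone to complex III (the cytochrome bc1 complex), from there through cytochrome c to complex IV (cytochrome c oxidase), and so to oxygen. The ATP synthase uses the proton gradient that complexes III and IV build, and its F1 part can also run backwards and split ATP. The chain is rich in iron, held in iron-sulfur clusters and in heme, whereas the ATP synthase holds neither. In yeast, transcription of many of these genes is raised by the Hap2, Hap3, Hap4 and Hap5 complex, which binds a CCAAT sequence upstream, and is held down on glucose. A second layer acts on the mRNA: Cth1 and Cth2 (the products of CTH1 and TIS11) bind AU-rich elements in the 3′ UTR and speed decay when iron is scarce.

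An AU-rich sequence was frequent after the respiratory chain genes and rare after the ATP synthase genes. The core TATTTAT was searched on the sense strand of the 300 bases after each stop codon, a window that can run past the 3′ UTR into neighbouring sequence. It was present in 4 of 4 complex II genes, 9 of 9 complex III genes, 2 of 2 cytochrome c genes and 8 of 9 complex IV genes, but in 1 of 13 ATP synthase genes. Among 5997 nuclear protein-coding genes, 17% held it. The complex IV gene without a match was COX5B, and the ATP synthase gene with a match was ATP20. With the longer TATTTATT, every match of which also holds TATTTAT, the counts were 4 of 4, 9 of 9, 2 of 2, 5 of 9 and 1 of 13, against 7.74% of all genes. A match is a description of the letters, not a shown binding site. The windows below belong to some of the members whose values are given in full, plus ATP20. Each was read 5′ to 3′ from R64 with complete matches in capitals. SDH3, QCR2, COX7 and COX8, also given in full, held matches that are not shown. Where a gene holds several matches, the stretch around one group of them is shown.
SDH1, chrXI:168998-169027, minus strand: TATTTATTTATTTATTTATTTATTTATtta
SDH2, chrXII:52943-52972, minus strand: ctatTATTTATTTATcattggcaatgctat
COR1, chrII:133988-134010, minus strand: gtcttcatTATTTATtggcaagg
RIP1, chrV:108192-108207, plus strand: tttggaccTATTTATt
CYC1, chrX:526779-526801, plus strand: taggtcccTATTTATttttttta
CYC7, chrV:79602-79624, minus strand: ggaggagaTATTTATtactttta
COX4, chrVII:149636-149658, minus strand: ttcttcttTATTTATattttttt
COX5A, chrXIV:532366-532388, plus strand: tttttcttTATTTATttactcaa
ATP20, chrXVI:600319-600341, plus strand: ctcaattcTATTTATtttctttt
SDH1 held 9 matches in its window, most of them in the overlapping run printed above, and SDH4 held 4. The COX4 window holds the shorter core only.

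The upstream Hap motif divided the members differently. ACCAATNA was searched on both strands of the 500 bases before each start codon and was found in 43.2% of the 37 members, against 8.6% of 6000 nuclear protein-coding genes. It was present in 1 of 4 complex II genes, 3 of 9 complex III genes, 0 of 2 cytochrome c genes, 5 of 9 complex IV genes and 7 of 13 ATP synthase genes. The matches below stand before members of complexes II, III and IV whose values are given in full, with the match in capitals.
SDH1, chrXI:171429-171458, minus strand: ggcgggggtggACCAATCAcagcgcagaac
COR1, chrII:135849-135878, minus strand: acgctttctgcACCAATGAaatgccaataa
RIP1, chrV:107001-107030, plus strand: ctccataacggACCAATCAgcgttttgcgc
COX8, chrXII:910149-910178, minus strand: aaacggtttgcACCAATCAtacgagagaag
The core of the site for the heme-dependent repressor Rox1, ATTGTTC, was found on either strand in 8 of 37 members and in 11.8% of all genes. COX5B, a hypoxic isoform gene that Rox1 is known to repress, was among the 8. No match of one of these upstream motifs overlapped a match of the other in a member.

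Library totals ran between 21582317 and 22016465 counts. The deletions showed in the counts: CRZ1 had at most 4 counts in any library, and CNB1 had 3 to 22 counts in crz1 cnb1 libraries, against 1581 to 3043 counts in crz1 libraries. The a-specific genes, markers of MATa cells, summed to 969 to 4950 CPM, against 21.9 to 42.9 CPM for the alpha-specific genes. On the first principal component crz1 48 h replicate 1 stood apart from its group (24.3, against -0.671 and -3.34), and so did replicate 1 of both untreated groups (-20.1 and -21.6, against -38.6 to -40.6). At 24.3 on this component that crz1 48 h library lay nearer the crz1 72 h libraries (14.8, 19.5 and 20.3) than replicates 2 and 3 of its group did. On the second component it did not: it was at 4.36, and the crz1 72 h libraries were at -11.7, -7.01 and -17.3. Replicates 2 and 3 were at -12.3 and -24.1 there. Which of the 3 libraries is the unusual one was not tested. The labels give triplicate time courses without saying how far the cultures were separate, so p-values measure the spread between these libraries, which may be partly technical. TPM is a share of the polyA RNA of a culture, so fewer cells with a transcript and less transcript per cell cannot be told apart.

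As a whole the members made up less of the transcriptome in CaCl2 in both strains, and the summed level of the ATP synthase genes was higher at 72 h than at 0 h. In crz1 cnb1, summed TPM over the 37 members averaged 6416 ± 256 at 0 h, 4351 ± 240.2 at 12 h, 4860.1 ± 428 at 48 h and 4529 ± 261 at 72 h (SD, n = 3 each). In crz1 the averages were 6389 ± 198, 4721 ± 498, 5239 ± 841 and 5102 ± 14.8 at the same times. For the ATP synthase genes alone the sum was 2943 ± 84.6 TPM at 72 h, against 2757 ± 68.1 TPM at 0 h, in crz1 cnb1, and 3093 ± 71.4 TPM at 72 h, against 2817 ± 24.5 TPM at 0 h, in crz1. Complex II, complex III and complex IV were lower at 72 h than at 0 h in every library of both strains. These sums are descriptions, and the tests were made gene by gene. In those tests ATP1 and ATP2 were the only ATP synthase genes called higher at 72 h in either strain.

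**Figure D1:**
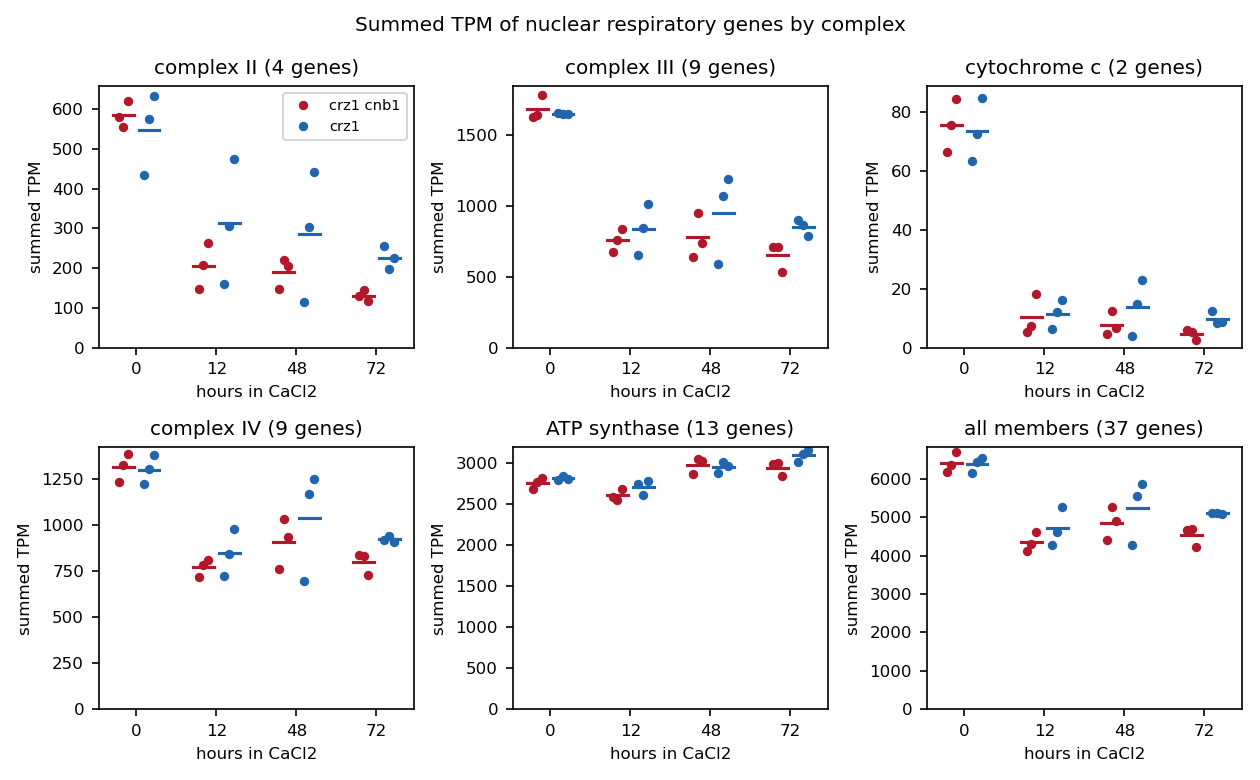
Summed TPM of the members by complex (y axes, from 0) against hours in CaCl2 (x axes, not to scale), with crz1 cnb1 in red left of crz1 in blue, 1 point per library and a bar at the mean of 3. Complex II averaged 131 ± 13.7 TPM at 72 h, against 586 ± 32.7 TPM at 0 h, in crz1 cnb1, while the ATP synthase panel stays between 2554 and 3159 TPM in all 24 libraries.

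Each gene was tested with edgeR's quasi-likelihood test on counts, and a gene is called where its Benjamini-Hochberg adjusted p over 6089 genes was below 0.05. Changes are log2 ratios ± SE. In crz1 cnb1 at 12 h against 0 h, 17 of 37 members fell and 2 rose, while 7.67% of all genes tested fell and 12.9% rose. At 48 h 15 fell and 0 rose, against 9.54% and 14.3% of all genes. At 72 h 22 fell and 2 rose, against 15.7% and 20.1% of all genes. The members' median log2 change was -0.63, -0.64 and -0.89 at 12, 48 and 72 h, while the median over all genes was 0.00, 0.06 and 0.01. In crz1 at 12 h 10 members fell and 2 rose, against 14.4% and 17.6% of all genes, and with the replicate number as a block, which pairs these libraries, 14 fell and 2 rose. At 48 h 7 fell and 4 rose, against 13.7% and 19.8%, and at 72 h 8 fell and 2 rose, against 19.8% and 22.6%. The members' medians in crz1 were -0.44, -0.07 and -0.42, and those of all genes 0.00, 0.07 and -0.03. The 3 times of a strain share its 0 h libraries. The 12 h counts leaned on single libraries. Of the 19 calls in crz1 cnb1, 10 and 9 were made once untreated replicates 2 and 3 were each left out, and 8 and 10 once 12 h replicates 1 and 2 were. Of the 12 calls in crz1, 7 were made once 12 h replicate 1 was left out and 7 once replicate 2 was. At 48 h in crz1 there were 18 calls in place of 11 without 48 h replicate 1. Called on log2(TPM + 1) with limma, the splits were 0 higher and 22 lower in crz1 cnb1 at 12 h, 1 and 24 in crz1 at 12 h, and 1 and 17 in crz1 at 48 h.

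**Figure D2:**
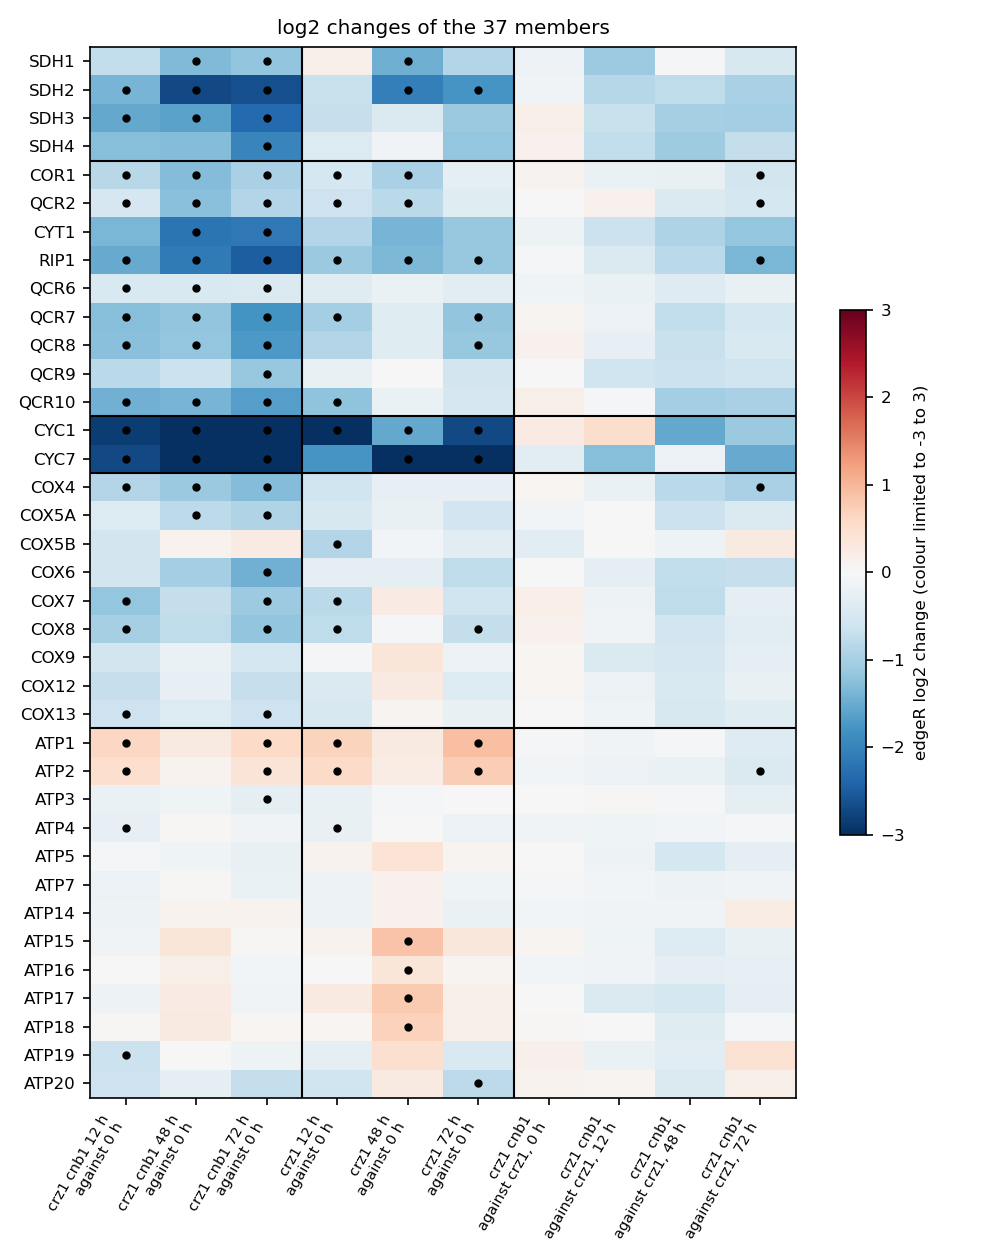
edgeR log2 changes (colour, red higher and blue lower, limited to -3 to 3) of the 37 members (rows, grouped by complex) in 10 comparisons (columns, 6 against 0 h and then 4 between strains), with a dot where the gene was called. At 72 h in crz1 cnb1 all 4 complex II, all 9 complex III and both cytochrome c genes carry a dot and are lower, while 10 of 13 ATP synthase genes carry none.

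Complex II feeds electrons from succinate into ubiquinone. In crz1 cnb1 at 72 h all 4 of its genes fell, with a median log2 change of -2.16, and in crz1 at 72 h 1 of 4 fell (SDH2), with a median of -1.14. Of all genes tested 15.7% fell in crz1 cnb1 and 19.8% in crz1 at that time. SDH2 (YLL041C, chrXII:53131-53931, single-exon) encodes the iron-sulfur subunit. In crz1 cnb1 SDH2 had 52.6, 72.4 and 68.8 TPM at 0 h, 13.1, 22.01 and 34.7 at 12 h, 9.67, 11.02 and 8.74 at 48 h, and 12.1, 11.5 and 9.37 at 72 h. In crz1 it had 45.3, 87.9 and 81.7 TPM at 0 h, 16.9, 38.7 and 61.7 at 12 h, 8.63, 12.0 and 18.1 at 48 h, and 16.6, 21.6 and 21.8 at 72 h. All 3 libraries at 48 h and at 72 h lay below all 3 at 0 h in both strains, whereas at 12 h the crz1 libraries overlapped the untreated ones. SDH2 fell by 72 h in crz1 cnb1 (-2.64 ± 0.48, adjusted p = 0.00039) and in crz1 (-1.77 ± 0.46, adjusted p = 0.00491). In crz1 cnb1 at 12 h the call (-1.40 ± 0.45, adjusted p = 0.0367) was lost when 0 h replicate 2 or 3, or 12 h replicate 1 or 2, was left out, with adjusted p between 0.1 and 0.139.

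SDH3 (YKL141W, chrXI:179667-180263) encodes a membrane anchor subunit of complex II. In crz1 cnb1 SDH3 had 383, 324 and 369 TPM at 0 h, 92.4, 125 and 134 at 12 h, 86.3, 133 and 129 at 48 h, and 72.2, 86.1 and 67.4 at 72 h. In crz1 it had 282, 314 and 369 TPM at 0 h, 95.2, 162 and 257 at 12 h, 69.9, 177 and 272 at 48 h, and 167, 117 and 135 at 72 h. In TPM all CaCl2 libraries of both strains lay below all untreated libraries. The counts used for the test did not separate in this way in crz1. There SDH3 had 1099, 3528 and 5488 counts at 48 h, against 4711, 5260 and 6282 at 0 h. Without crz1 48 h replicate 1 its edgeR change at 48 h was 0.01 ± 0.35. SDH3 fell at every time in crz1 cnb1, most at 72 h (-2.33 ± 0.47, adjusted p = 0.000912), while in crz1 at 72 h the change missed the threshold (-1.12 ± 0.45, adjusted p = 0.0518). The crz1 cnb1 call at 12 h was lost without 0 h replicate 3 or 12 h replicate 1 or 2 (adjusted p = 0.0657, 0.0896 and 0.0582), and that at 48 h without 48 h replicate 1 (adjusted p = 0.0755). SDH1 (YKL148C, chrXI:169207-171129) encodes the flavoprotein subunit and was the least abundant complex II gene. SDH1 had 6.32, 7.34 and 7.68 TPM at 0 h, 2.66, 3.66 and 5.89 at 12 h, 2.96, 2.85 and 2.68 at 48 h, and 3.56, 3.09 and 3.25 at 72 h in crz1 cnb1. In crz1 it had 5.48, 10.8 and 8.59 TPM at 0 h, 3.13, 8.89 and 12.0 at 12 h, 2.53, 2.07 and 2.45 at 48 h, and 3.92, 4.63 and 4.24 at 72 h. Every library at 48 and 72 h lay below every untreated one in its strain, and 2 of the 3 crz1 libraries at 12 h did not. SDH1 fell at 48 h in crz1 cnb1 (-1.32 ± 0.37) and in crz1 (-1.47 ± 0.38), and at 72 h in crz1 cnb1 (-1.19 ± 0.37, adjusted p = 0.0175). The crz1 cnb1 call at 48 h was lost without 0 h replicate 3 or 48 h replicate 3 (adjusted p = 0.0525 and 0.0528), and that at 72 h without 0 h replicate 3 or 72 h replicate 2 (adjusted p = 0.0602 and 0.06). YJL045W, the SDH1 paralog, shares 84.2% of aligned residues with it but no identical run of coding sequence longer than 23 bases. SDH4, the other membrane anchor, fell in crz1 cnb1 at 72 h (-1.99 ± 0.54, adjusted p = 0.00812).

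Complex III hands electrons from ubiquinol to cytochrome c, and in crz1 cnb1 7 of its 9 genes fell at 12 h, 8 at 48 h and 9 at 72 h, and none rose. In crz1 5 fell at 12 h, 3 at 48 h and 3 at 72 h (RIP1, QCR7 and QCR8), and none rose. Of all genes tested 7.67, 9.54 and 15.7% fell in crz1 cnb1 at 12, 48 and 72 h, and 14.4, 13.7 and 19.8% in crz1. The median changes at 72 h were -1.65 in crz1 cnb1 and -0.54 in crz1. RIP1 (YEL024W, chrV:107260-107907), which encodes the Rieske iron-sulfur protein, had 54.9, 56.6 and 53.5 TPM at 0 h, 13.2, 20.3 and 21.7 at 12 h, 10.3, 14.1 and 12.9 at 48 h, and 11.03, 11.8 and 8.45 at 72 h in crz1 cnb1. In crz1 RIP1 had 52.2, 61.5 and 60.3 TPM at 0 h, 16.0, 22.6 and 31.6 at 12 h, 10.9, 16.2 and 23.6 at 48 h, and 33.4, 19.8 and 20.5 at 72 h. Every CaCl2 library of both strains lay below every untreated library. At 72 h RIP1 had the most negative change of the 9 in crz1 cnb1 (-2.48 ± 0.36, adjusted p = 3.36e-05), and it fell in crz1 too (-1.15 ± 0.34, adjusted p = 0.0105). The crz1 call at 12 h (-1.12 ± 0.34, adjusted p = 0.0164) was lost without crz1 12 h replicate 1 or 2 (adjusted p = 0.0786 and 0.0533).

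COR1 (YBL045C, chrII:134143-135516) and QCR2 (YPR191W, chrXVI:919381-920487) encode the 2 large core subunits, and the mean of each was lowest at 48 h. COR1 had 74.5, 54.5 and 56.3 TPM at 0 h, 31.3, 35.5 and 32.8 at 12 h, 25.1, 25.4 and 23.5 at 48 h, and 38.2, 33.6 and 28.2 at 72 h in crz1 cnb1. In crz1 COR1 had 58.5, 58.2 and 59.0 TPM at 0 h, 31.7, 36.4 and 40.2 at 12 h, 29.2, 21.99 and 20.7 at 48 h, and 46.8, 43.2 and 44.9 at 72 h. All CaCl2 libraries lay below all untreated ones in each strain. COR1 fell at 48 h in crz1 cnb1 (-1.30 ± 0.13, adjusted p = 7.72e-07) and in crz1 (-0.98 ± 0.13, adjusted p = 1.69e-05). QCR2 had 79.9, 70.7 and 65.0 TPM at 0 h, 39.8, 46.3 and 59.6 at 12 h, 30.9, 27.8 and 30.8 at 48 h, and 45.4, 46.0 and 31.7 at 72 h in crz1 cnb1. In crz1 QCR2 had 78.6, 74.9 and 68.0 TPM at 0 h, 40.2, 41.8 and 45.2 at 12 h, 36.3, 33.9 and 29.3 at 48 h, and 56.1, 55.0 and 52.3 at 72 h. The 72 h libraries of crz1 lay above the 48 h ones for both genes. At 72 h both genes were still called lower in crz1 cnb1 (-0.96 ± 0.13 and -0.89 ± 0.15), whereas in crz1 they were at -0.30 ± 0.13 and -0.36 ± 0.15 and missed the threshold (adjusted p = 0.0719 and 0.0598). The other 6 complex III genes ran from QCR6, the acidic hinge subunit (-0.42 ± 0.15), to CYT1, which encodes cytochrome c1 (-2.15 ± 0.56), in crz1 cnb1 at 72 h. In crz1 the same 6 lay between -1.18 (QCR7) and -0.33 (QCR6).

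Cytochrome c, the heme protein that shuttles electrons from complex III to complex IV, had the most negative changes of all members at 72 h in both strains. CYC1 fell in all 6 comparisons with 0 h and CYC7 in 5, the exception being crz1 at 12 h. Cytochrome c is made from CYC1 (YJR048W, chrX:526335-526664), the main aerobic isoform gene, and CYC7 (YEL039C, chrV:79636-79977), the isoform gene known for its expression at low oxygen. Their proteins share 81.4% of aligned residues, and their coding sequences share 74.9% of aligned bases with a longest identical run of 35 bases. The codons for the heme attachment motif differ between the genes, as the 27-base stretches below show, with the 5 codons from the first cysteine to the histidine in capitals.
CYC1, chrX:526386-526412, plus strand: actagaTGTCTACAATGCCACaccgtg
CYC7, chrV:79888-79914, minus strand: acgaggTGTCAGCAGTGTCATacaata
These stretches differ at 10 of 27 bases.

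CYC1 had 60.8, 48.9 and 57.6 TPM at 0 h, 3.33, 5.14 and 13.7 at 12 h, 2.21, 9.75 and 4.30 at 48 h, and 3.98, 4.18 and 2.32 at 72 h in crz1 cnb1. In crz1 it had 55.9, 38.2 and 49.0 TPM at 0 h, 4.02, 4.52 and 6.20 at 12 h, 3.11, 12.8 and 19.8 at 48 h, and 9.26, 6.29 and 5.17 at 72 h. No CaCl2 library reached the lowest untreated library in either strain, although 1 library at 12 h in crz1 cnb1 and 2 at 48 h in crz1 were above 12 TPM. CYC1 fell by 72 h in crz1 cnb1 (-4.07 ± 0.67, adjusted p = 0.000136) and in crz1 (-2.70 ± 0.61, adjusted p = 0.00181). The crz1 call at 48 h (-1.53 ± 0.58, adjusted p = 0.0489) was lost without any 1 of the 3 untreated libraries or without 48 h replicate 1 or 2, with adjusted p between 0.0662 and 0.105. CYC7 had 5.59, 26.9 and 26.9 TPM at 0 h, 1.88, 2.31 and 4.58 at 12 h, 2.35, 2.62 and 2.23 at 48 h, and 1.92, 1.23 and 0.224 at 72 h in crz1 cnb1. In crz1 it had 7.52, 34.2 and 35.8 TPM at 0 h, 2.33, 7.45 and 9.97 at 12 h, 0.889, 2.02 and 3.29 at 48 h, and 3.31, 1.99 and 3.55 at 72 h. Replicate 1 of each untreated group was far below the other 2 untreated libraries, and CYC7 in crz1 at 12 h overlapped it. The crz1 cnb1 call at 12 h (-2.71 ± 0.72, adjusted p = 0.0128) was lost without 0 h replicate 2 or 3 or 12 h replicate 1 or 2, with adjusted p between 0.0515 and 0.0627. CYC7 fell by 72 h in crz1 cnb1 (-4.23 ± 0.82, adjusted p = 0.000598) and in crz1 (-3.05 ± 0.73, adjusted p = 0.00247). At 72 h the 2 isoforms together had 5.90, 5.42 and 2.54 TPM in crz1 cnb1, against 66.4, 75.8 and 84.5 TPM at 0 h. In crz1 the sums were 12.6, 8.27 and 8.72 at 72 h, against 63.5, 72.4 and 84.8 at 0 h.

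**Figure D3:**
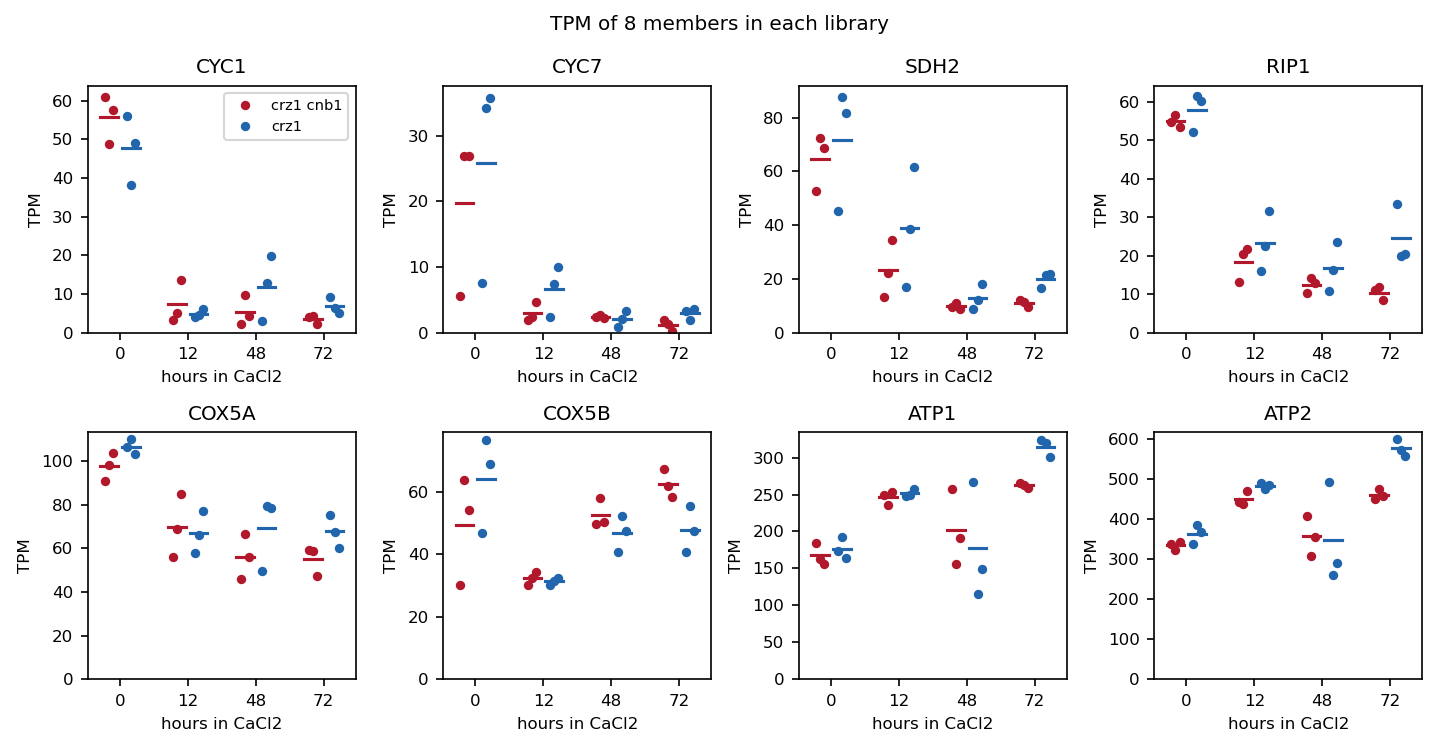
TPM (y axes, from 0) of 8 members in each library against hours in CaCl2 (x axes, not to scale), with crz1 cnb1 in red left of crz1 in blue and a bar at the mean of 3 libraries. CYC1 and RIP1 are lower in every CaCl2 library than in any untreated one, as are CYC7 and SDH2 within each strain except in crz1 at 12 h, COX5B at 72 h overlaps 0 h, and ATP1 and ATP2 are higher at 12 and 72 h in every library.

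Complex IV reduces oxygen to water, and its nuclear genes encode the subunits around the mitochondrially encoded core. In crz1 cnb1 4 of 9 fell at 12 h, 2 at 48 h and 6 at 72 h, with a median of -0.91 at 72 h. In crz1 3 fell at 12 h, 0 at 48 h and 1 at 72 h (COX8), with a median of -0.42 at 72 h. The shares of all genes that fell at these times were 7.67, 9.54 and 15.7% in crz1 cnb1 and 14.4, 13.7 and 19.8% in crz1. COX4 (YGL187C, chrVII:149704-150171) encodes a zinc-binding subunit. COX4 had 75.6, 67.0 and 75.3 TPM at 0 h, 33.3, 37.1 and 42.8 at 12 h, 27.9, 39.6 and 31.5 at 48 h, and 33.9, 29.9 and 29.3 at 72 h in crz1 cnb1. In crz1 COX4 had 68.7, 70.8 and 72.9 TPM at 0 h, 36.4, 39.7 and 47.7 at 12 h, 26.9, 49.2 and 57.9 at 48 h, and 64.3, 49.3 and 54.5 at 72 h. In TPM every CaCl2 library lay below every untreated one in each strain. The counts used for the test did not separate in this way in crz1. There COX4 had 332, 769 and 915 counts at 48 h, against 901, 930 and 973 at 0 h. Without crz1 48 h replicate 1 its edgeR change at 48 h was 0.12 ± 0.19. In crz1 cnb1 COX4 fell at all 3 times, reaching -1.30 ± 0.28 at 72 h (adjusted p = 0.00121), whereas in crz1 it passed the test at none of them (-0.25 ± 0.27, adjusted p = 0.462 at 72 h). The 12 h call in crz1 cnb1 was lost without 0 h replicate 2 or 3 or 12 h replicate 1 or 2, with adjusted p between 0.0555 and 0.107.

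COX7 (YMR256C, chrXIII:778945-779127) and COX8 (YLR395C, chrXII:909729-909965) encode small membrane subunits. COX7 had 104, 108 and 112 TPM at 0 h, 48.2, 46.1 and 44.7 at 12 h, 53.7, 75.6 and 64.9 at 48 h, and 65.0, 56.2 and 40.2 at 72 h in crz1 cnb1. In crz1 COX7 had 74.7, 109 and 105 TPM at 0 h, 43.5, 47.7 and 54.7 at 12 h, 56.1, 101 and 102 at 48 h, and 54.2, 58.1 and 68.2 at 72 h. In crz1 the 48 h libraries of COX7 overlapped the untreated ones. COX7 fell at 12 h in both strains (-1.16 ± 0.27 in crz1 cnb1 and -0.81 ± 0.26 in crz1) and at 72 h in crz1 cnb1 (-1.09 ± 0.26). The crz1 call was lost without 0 h replicate 2 or 3 or 12 h replicate 1 or 2, with adjusted p between 0.0629 and 0.0971. COX8 had 278, 297 and 346 TPM at 0 h, 128, 155 and 161 at 12 h, 142, 202 and 191 at 48 h, and 146, 159 and 127 at 72 h in crz1 cnb1. In crz1 COX8 had 258, 266 and 333 TPM at 0 h, 120.4, 151 and 177 at 12 h, 126, 237 and 251 at 48 h, and 168, 176 and 155 at 72 h. At 72 h COX8 fell in both strains (-1.18 ± 0.28, adjusted p = 0.00318 in crz1 cnb1, and -0.71 ± 0.28, adjusted p = 0.0479 in crz1), and the crz1 call was lost without any 1 of its 6 libraries, with adjusted p between 0.0514 and 0.173. COX9 and COX12 passed the test in no comparison with 0 h in either strain, while COX6 and COX13 fell at 72 h in crz1 cnb1 (-1.44 ± 0.42 and -0.61 ± 0.19).

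Subunit 5 of complex IV comes from COX5A (YNL052W, chrXIV:531725-532186), the aerobic isoform gene, or COX5B (YIL111W, chrIX:155222-155765, with 2 coding exons), the hypoxic one, and their proteins share 63.6% of aligned residues. COX5A had 90.8, 98.5 and 104 TPM at 0 h, 56.1, 68.7 and 85.2 at 12 h, 46.1, 66.6 and 56.0 at 48 h, and 59.4, 58.7 and 47.2 at 72 h in crz1 cnb1. In crz1 COX5A had 107, 110.1 and 103 TPM at 0 h, 58.1, 66.2 and 77.0 at 12 h, 49.7, 79.5 and 78.5 at 48 h, and 75.4, 67.7 and 60.3 at 72 h. COX5A fell at 48 h (-0.78 ± 0.25) and 72 h (-0.91 ± 0.25, adjusted p = 0.00729) in crz1 cnb1 and missed the threshold in crz1 at 72 h (-0.57 ± 0.25, adjusted p = 0.0652). The 48 h call was lost without 0 h replicate 2 or 3 or 48 h replicate 1 or 3, with adjusted p between 0.0647 and 0.123. COX5B had 30.0, 63.6 and 54.2 TPM at 0 h, 30.1, 32.5 and 34.4 at 12 h, 49.7, 57.8 and 50.4 at 48 h, and 67.1, 61.9 and 58.3 at 72 h in crz1 cnb1. In crz1 COX5B had 46.7, 76.6 and 68.9 TPM at 0 h, 30.2, 31.3 and 32.3 at 12 h, 40.8, 52.1 and 47.2 at 48 h, and 40.7, 55.5 and 47.2 at 72 h. Of the 6 comparisons with 0 h COX5B passed the test in 1, as a fall in crz1 at 12 h (-0.87 ± 0.24, adjusted p = 0.00838), and in crz1 cnb1 at 72 h it was at 0.26 ± 0.24. COX5B as a percentage of the TPM of both isoforms was 24.9, 39.2 and 34.3% at 0 h, 35.0, 32.1 and 28.8 at 12 h, 51.9, 46.5 and 47.3 at 48 h, and 53.1, 51.3 and 55.2 at 72 h in crz1 cnb1. In crz1 it was 30.4, 41.0 and 40.0% at 0 h, 34.2, 32.1 and 29.5 at 12 h, 45.1, 39.6 and 37.6 at 48 h, and 35.1, 45.1 and 43.9 at 72 h. In crz1 cnb1 all 6 libraries at 48 and 72 h were above all 6 at 0 and 12 h, while in crz1 the 48 and 72 h libraries overlapped those at 0 h.

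Among the ATP synthase genes a few rose and a few fell. In crz1 cnb1 2 of 13 rose and 2 fell at 12 h, none passed the test at 48 h, and 2 rose and 1 fell at 72 h. In crz1 2 rose and 1 fell at 12 h, 4 rose at 48 h, and 2 rose and 1 fell at 72 h. Of all genes tested 12.9, 14.3 and 20.1% rose and 7.67, 9.54 and 15.7% fell in crz1 cnb1 at 12, 48 and 72 h. For crz1 the shares were 17.6, 19.8 and 22.6% higher and 14.4, 13.7 and 19.8% lower. The median changes at 72 h were -0.10 in crz1 cnb1 and 0.08 in crz1. The genes that rose at 12 and 72 h were in both strains ATP1 (YBL099W, chrII:37053-38690) and ATP2 (YJR121W, chrX:647607-649142), which encode the alpha and beta subunits of the catalytic F1 hexamer. ATP1 had 185, 163 and 156 TPM at 0 h, 249, 236 and 254 at 12 h, 258, 156 and 191 at 48 h, and 266, 262 and 259 at 72 h in crz1 cnb1. In crz1 ATP1 had 174, 192 and 165 TPM at 0 h, 248, 249.8 and 257 at 12 h, 267, 115 and 149 at 48 h, and 324, 319.8 and 301 at 72 h. ATP2 had 338, 324 and 342 TPM at 0 h, 444, 439 and 472 at 12 h, 408, 309 and 355 at 48 h, and 449.7, 475 and 459 at 72 h in crz1 cnb1. In crz1 ATP2 had 339, 385 and 368 TPM at 0 h, 492, 476 and 484 at 12 h, 494, 259 and 290.3 at 48 h, and 599.9, 573 and 559 at 72 h. At 12 and 72 h all libraries of both strains lay above all untreated ones, whereas the 48 h libraries spread widely. In TPM crz1 48 h replicate 1 was above the 12 h libraries for both genes, and the other 2 libraries were below the untreated ones. On the count scale those 2 libraries showed no fall. Without replicate 1 the edgeR change at 48 h in crz1 was 0.11 ± 0.15 for ATP1 and 0.11 ± 0.12 for ATP2. ATP1 rose by 72 h in crz1 cnb1 (0.58 ± 0.16, adjusted p = 0.0069) and in crz1 (0.91 ± 0.16, adjusted p = 0.000107). ATP2 rose by 72 h in crz1 cnb1 (0.39 ± 0.12, adjusted p = 0.0161, which was lost without 0 h replicate 2, adjusted p = 0.0601, or 72 h replicate 3, adjusted p = 0.0577) and in crz1 (0.75 ± 0.12, adjusted p = 6.36e-05). On log2(TPM + 1) the 12 h rises of ATP1 (0.56, limma adjusted p = 0.0678) and ATP2 (0.43, limma adjusted p = 0.066) in crz1 cnb1 missed the threshold, as did that of ATP1 in crz1 (0.51, limma adjusted p = 0.0612).

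Of the other 11 ATP synthase genes 8 passed the test in at least 1 comparison with 0 h, and none in more than 2. ATP3, for the gamma subunit in the central stalk, fell in crz1 cnb1 at 72 h (-0.27 ± 0.11, adjusted p = 0.0491). ATP15 (YPL271W, chrXVI:30079-30267), ATP16 and ATP17 encode the epsilon and delta subunits of the stalk and the f subunit of the membrane part. ATP15 had 478, 479.7 and 479.7 TPM at 0 h, 423, 439 and 416 at 12 h, 513, 668 and 640.4 at 48 h, and 518, 519 and 515 at 72 h in crz1 cnb1. In crz1 ATP15 had 463, 448 and 472 TPM at 0 h, 445, 430.3 and 453 at 12 h, 482, 678 and 743 at 48 h, and 522, 502 and 636 at 72 h. At 48 h in crz1 ATP15 (0.86 ± 0.20, adjusted p = 0.0025), ATP16 (0.37 ± 0.13), ATP17 (0.78 ± 0.21) and ATP18 (0.69 ± 0.19) rose on the count scale. On log2(TPM + 1), where the median of all genes in that comparison was -0.25, ATP15 was still called (0.44, limma adjusted p = 0.012) and ATP16 was at 0.02, ATP17 at 0.37 and ATP18 at 0.29, none of them called. In a fit on the compared libraries only, no member was called higher in that comparison, and ATP15 was at 0.80 (adjusted p = 0.1). Of the membrane and peripheral genes, ATP4 fell at 12 h in both strains (-0.25 ± 0.09 in crz1 cnb1 and -0.23 ± 0.09 in crz1), and ATP19 fell at 12 h in crz1 cnb1 (-0.65 ± 0.23). ATP20, for the dimer-forming g subunit, fell in crz1 at 72 h (-0.78 ± 0.28, adjusted p = 0.031) and just missed the threshold in crz1 cnb1 (-0.71 ± 0.28, adjusted p = 0.0545). ATP5, ATP7 and ATP14 passed the test in no comparison with 0 h.

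The 24 members with TATTTAT downstream and the 13 without it had different counts. In crz1 cnb1 15, 15 and 21 of the 24 with the motif fell at 12, 48 and 72 h and 0 rose, with medians of -0.93, -1.17 and -1.24. Of the 13 without it 2, 0 and 1 fell and 2, 0 and 2 rose, with medians of -0.16, 0.10 and -0.08. In crz1 8, 7 and 8 of the 24 fell and 0 rose, with medians of -0.61, -0.27 and -0.74, and of the 13 without it 2, 0 and 0 fell and 2, 4 and 2 rose, with medians of -0.01, 0.27 and 0.08. Across the genome the difference was smaller: at 72 h in crz1 cnb1 26.3% of 1006 tested genes with the motif fell, against 12% of 4685 without it. In crz1 at 72 h these shares were 22.4% and 19.3%. At 12 h they were 11.4% and 6.6% in crz1 cnb1 and 16.1% and 14.3% in crz1. At 48 h they were 17.3% and 7.15% in crz1 cnb1 and 18.4% and 13.1% in crz1. Of genes with the motif 11.1, 10.7 and 15.7% rose in crz1 cnb1 at 12, 48 and 72 h, against 14, 15.9 and 22.3% without it. For crz1 these shares were 17.7, 15.6 and 20%, against 18.4, 21.3 and 24.4%. The motif nearly coincides with membership of the electron transport chain, so the motif and the complexes cannot be told apart within the members, and no test was made.

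**Figure D4:**
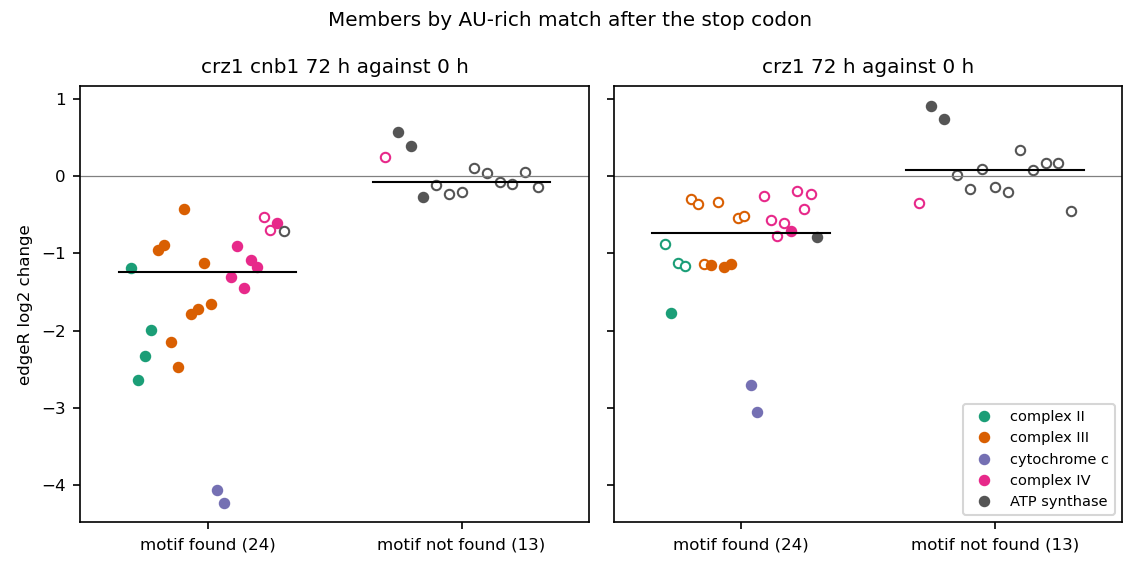
edgeR log2 changes (y axis) at 72 h against 0 h in crz1 cnb1 (left) and crz1 (right) for members with and without TATTTAT in the 300 bases after the stop codon, coloured by complex, filled where called, with a line at the median. With the motif the median was -1.24 in crz1 cnb1 and -0.74 in crz1, and the genes without it lie near 0 with ATP1 and ATP2 above.

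Compared directly, no member differed between strains by the test before treatment. At 0 h 0 of 37 members were called (edgeR, with 0 at an unadjusted p below 0.05 and 0 by DESeq2), against 0% of all genes higher and 0.0164% lower in crz1 cnb1. At 12 h 0 were called, with 1 at an unadjusted p below 0.05, while 1.64% of all genes were higher and 2.09% lower. DESeq2 called 1 member at 12 h, SDH1 (-1.10), and with the replicate number as a block edgeR called it too (-1.03, adjusted p = 0.0436), the numbers pairing the libraries at this time. Without crz1 12 h replicate 1 SDH1 was called as well (-1.50, adjusted p = 0.00293). At 72 h 5 members were lower in crz1 cnb1 than in crz1 and 0 were higher, against 2.81% of all genes lower and 3.35% higher. They were RIP1 (-1.37 ± 0.35, adjusted p = 0.0238), COX4 (-0.98 ± 0.28, adjusted p = 0.0388), COR1 (-0.56 ± 0.13, adjusted p = 0.0142), QCR2 (-0.54 ± 0.15, adjusted p = 0.0364) and ATP2 (-0.44 ± 0.12, adjusted p = 0.0304). RIP1 had 11.03, 11.8 and 8.45 TPM in crz1 cnb1 at 72 h, against 33.4, 19.8 and 20.5 TPM in crz1. COX4 had 33.9, 29.9 and 29.3 TPM in crz1 cnb1, against 64.3, 49.3 and 54.5 TPM in crz1. The groups did not overlap for either gene. In all, 33 of 37 members had a negative difference at 72 h, with a median of -0.38, while the median over all genes was 0.01. The count of 5 depended on single libraries: it was 1 without crz1 cnb1 72 h replicate 1 or crz1 72 h replicate 3, and 0 without crz1 cnb1 72 h replicate 2 or 3 or crz1 72 h replicate 1. COR1 was the gene left without crz1 cnb1 72 h replicate 1, and RIP1 without crz1 72 h replicate 3. On log2(TPM + 1), where the median of all genes was 0.12, limma called 2 (RIP1 and COX4). An edgeR fit on the compared libraries only went the other way, with 19 members lower and 1 higher. In that fit 467 of all 6089 genes were lower and 434 higher.

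At 48 h the comparison of strains turned on 1 library. With all libraries 0 of 37 members were called by edgeR, with 14 at an unadjusted p below 0.05 and 4 called by DESeq2 (QCR10, COX4, COX7 and ATP5, all lower), against 2.07% of all genes higher and 3.05% lower in crz1 cnb1. All 37 differences were negative, with a median of -0.49. Without crz1 48 h replicate 1, 27 members were lower in crz1 cnb1 than in crz1 and 0 were higher, against 17.1% of all genes lower. The 27 were 2 of 4 complex II genes, 8 of 9 complex III genes, CYC1, 8 of 9 complex IV genes and 8 of 13 ATP synthase genes. CYC1 was at -2.03 ± 0.52, adjusted p = 0.00735, COX4 at -1.16 ± 0.19, adjusted p = 0.000317 and QCR10 at -1.42 ± 0.25, adjusted p = 0.000479 without that library. COX4 had 27.9, 39.6 and 31.5 TPM in crz1 cnb1 at 48 h, against 26.9, 49.2 and 57.9 TPM in crz1, where the lowest value is the library in question. QCR10 had 27.2, 38.1 and 36.3 TPM in crz1 cnb1, against 26.5, 61.2 and 70.3 TPM in crz1. The same library also set the crz1 change at 48 h: without it 6 members fell and 12 rose in crz1, against 18.2% and 26.5% of all genes, the 12 being 8 ATP synthase and 4 complex IV genes. On log2(TPM + 1) with all libraries the median of all genes at 48 h was 0.26 and that of the members -0.14, 12 members were positive and 25 negative, and none was called. Each of the other 5 fits that left out 1 library of this comparison called 0 members. Neither the labels nor the totals mark the library out, and the source of its difference was not tested. On the first principal component replicate 1 lay nearer the crz1 72 h libraries than replicates 2 and 3 did. On the second, replicate 1 (4.36) lay outside the crz1 72 h range of -17.3 to -7.01, and replicate 2 (-12.3) lay inside it. Replicates 2 and 3 differed less from each other (chi-square per degree of freedom 80.8) than from replicate 1 (378 and 497). Which fit is the better picture of crz1 at 48 h was not tested, so the fit without replicate 1 is not shown to be.

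**Figure D5:**
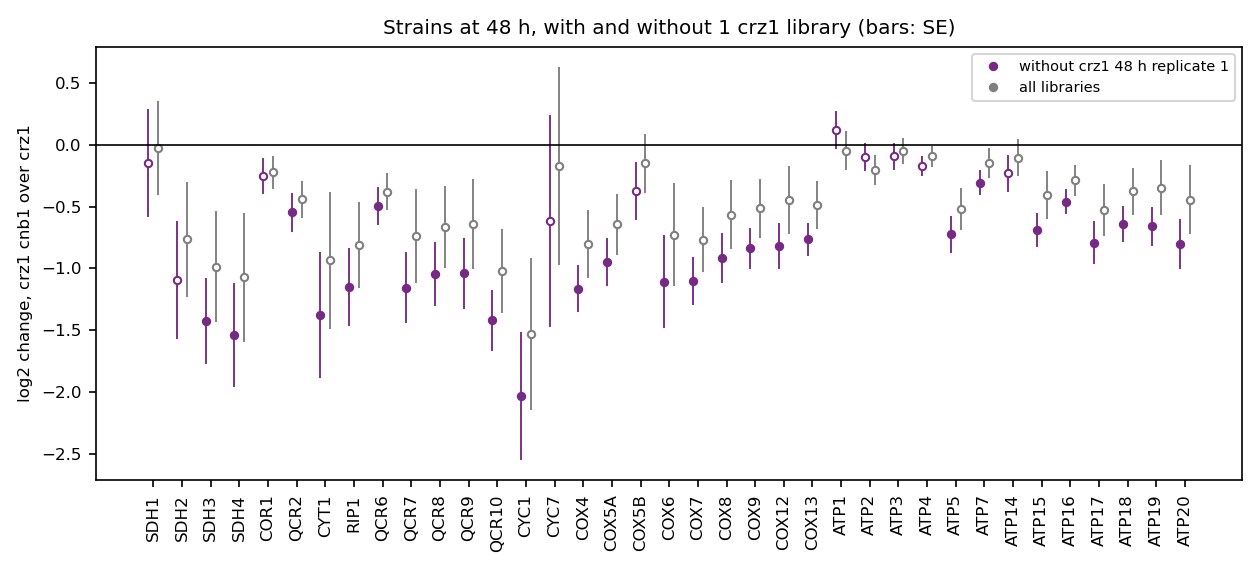
edgeR log2 change of crz1 cnb1 over crz1 at 48 h (y axis, bars SE) for each member (x axis), without crz1 48 h replicate 1 in purple and with all libraries in grey, filled where called. No point is filled with all libraries and 27 are filled without that library.

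Whether the strains changed differently from 0 h was tested as the change of the strain difference. At 12 h 0 members were called (0 at an unadjusted p below 0.05 and 0 by DESeq2), while 0.0328% of all genes were higher and 0.0164% lower. At 48 h 0 were called (5 at an unadjusted p below 0.05 and 0 by DESeq2), against 0.312% higher and 0.115% lower, and without crz1 48 h replicate 1 there were 18 lower, against 8.82% of all genes. At 72 h 0 were called (6 at an unadjusted p below 0.05, and 1 by DESeq2, COR1), against 0.509% higher and 0.0821% lower. With all libraries this test thus called no difference in the size of the changes. RIP1, at -1.33 ± 0.48 for 72 h, had an adjusted p of 0.204. COX4 was at -1.05 ± 0.39, adjusted p = 0.207 and COR1 at -0.66 ± 0.19, adjusted p = 0.0918. In an edgeR fit on the compared libraries only, 6 members were called lower and 0 higher at 72 h. They were SDH3, COR1, RIP1, QCR10, CYC1 and COX4, while 109 of all genes were lower and 106 higher. Between 72 h and 12 h no member was called in crz1 cnb1 (6 at an unadjusted p below 0.05, and 2 by DESeq2, RIP1 and COX5B), where 2.1% of all genes were higher and 2.33% lower. In crz1 none was called either (4 at an unadjusted p below 0.05 and 0 by DESeq2), with 1.13% of all genes higher and 0.755% lower. COX5B came nearest in crz1 cnb1, with 67.1, 61.9 and 58.3 TPM at 72 h, against 30.1, 32.5 and 34.4 TPM at 12 h (0.81 ± 0.24, adjusted p = 0.0577). With the replicate number as a block COX5B was called (adjusted p = 0.00979), although the numbers were not taken to pair these libraries (lowest correlation -0.0434). Single libraries added 1 call each: QCR2 without crz1 cnb1 12 h replicate 1 in crz1 cnb1 (-0.54, adjusted p = 0.0391) and SDH1 without crz1 12 h replicate 1 in crz1 (-1.46, adjusted p = 0.00621).

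Genes that act on or beside these complexes were counted in the same way, and the shares over all genes at 72 h were 20.1% higher and 15.7% lower in crz1 cnb1 and 22.6% higher and 19.8% lower in crz1. Of 60 assembly and translation factors 10 rose and 9 fell in crz1 cnb1 at 72 h (median 0.00), and 5 rose and 31 fell in crz1 (median -0.39). Among those with the smallest p in both strains were CYC3, which attaches heme to cytochrome c (1.63 ± 0.18 in crz1 cnb1 and 1.26 ± 0.18 in crz1), and OXA1, the inner membrane insertase (1.58 ± 0.18 and 1.45 ± 0.18). CYC3 rose and CYC1 and CYC7 fell in the same comparison. Between strains at 72 h 18 of the 60 were higher in crz1 cnb1 and 0 lower, against 3.35% of all genes higher and 2.81% lower. They were led by the intermembrane space factors COA4 (1.41 ± 0.20, adjusted p = 0.000317), COX23 (0.85 ± 0.13, adjusted p = 0.000655) and COX17 (1.23 ± 0.21, adjusted p = 0.00126). Of the 37 subunit genes 5 were lower and 0 higher in that comparison. Among 20 other dehydrogenases, carriers and regulators 4 rose and 5 fell in crz1 cnb1 at 72 h and 6 rose and 4 fell in crz1. POR1, the outer membrane porin, rose in both (1.003 ± 0.19 in crz1 cnb1 and 1.41 ± 0.19 in crz1), and NDI1, the internal NADH dehydrogenase, fell in crz1 cnb1 (-1.44 ± 0.32, adjusted p = 0.00186). Of 15 TCA cycle genes other than complex II 4 rose and 1 fell in crz1 cnb1 at 72 h and 3 rose and 0 fell in crz1, with FUM1 (fumarase) at 0.51 ± 0.14 in crz1 cnb1 and 0.83 ± 0.14 in crz1. Of 11 ubiquinone synthesis genes 2 rose and 2 fell in crz1 cnb1, and 2 rose and 4 fell in crz1. Of 15 hypoxic genes 2 rose and 4 fell in crz1 cnb1 and 2 rose and 3 fell in crz1, and HEM13, of heme synthesis, fell in both (-1.69 ± 0.31 and -1.27 ± 0.31). Of the 7 mitochondrially encoded subunit genes 2 passed the filter, and in this polyA RNA the 7 summed to 0.918 to 2.79 CPM.

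The regulators of the members were read in the same libraries. Of 19 listed 10 rose and 2 fell in crz1 cnb1 at 72 h, against 20.1% and 15.7% of all genes. In crz1 8 rose and 3 fell, against 22.6% and 19.8%. TIS11, which encodes Cth2, had 61.9, 50.1 and 42.2 TPM at 0 h, 238, 161 and 53.7 at 12 h, 333, 291 and 328 at 48 h, and 237, 272 and 166 at 72 h in crz1 cnb1. In crz1 TIS11 had 73.5, 60.5 and 62.7 TPM at 0 h, 131, 71.8 and 17.3 at 12 h, 136, 40.6 and 72.8 at 48 h, and 139.7, 64.9 and 98.2 at 72 h. All 6 crz1 cnb1 libraries at 48 and 72 h lay above all untreated ones, and TIS11 rose in that strain at 12 h (1.60 ± 0.53), 48 h (2.65 ± 0.54) and 72 h (2.06 ± 0.53, adjusted p = 0.00636). In crz1 the libraries overlapped the untreated ones at 12, 48 and 72 h, and TIS11 passed the test at no time (0.72 ± 0.52, adjusted p = 0.272 at 72 h). The difference between strains itself was not called (1.73 ± 0.53, adjusted p = 0.0624 at 48 h and 1.01 ± 0.52, adjusted p = 0.274 at 72 h). CTH1, which encodes the related Cth1, fell in both strains (-1.22 ± 0.16 in crz1 cnb1 and -0.88 ± 0.16 in crz1 at 72 h).

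HAP4, for the activating subunit of the Hap complex, had 41.7, 137 and 131 TPM at 0 h, 15.9, 50.6 and 60.1 at 12 h, 9.04, 23.1 and 15.4 at 48 h, and 36.7, 35.1 and 28.9 at 72 h in crz1 cnb1. In crz1 HAP4 had 35.3, 153 and 144 TPM at 0 h, 23.4, 103 and 177 at 12 h, 15.6, 32.5 and 28.1 at 48 h, and 16.7, 51.2 and 48.1 at 72 h. Replicate 1 was the lowest untreated library in both strains, at about the level of treated ones, and HAP4 was called once, as a fall in crz1 cnb1 at 48 h (-2.69 ± 0.79, adjusted p = 0.02). HAP1, a heme-responsive activator of CYC1 and CYC7, rose at 72 h in crz1 cnb1 (1.18 ± 0.30) and in crz1 (0.96 ± 0.30). The HAP1 allele of S288C-derived strains such as BY4741 is known to be disrupted by a Ty1 insertion near its 3′ end. ROX1, for the aerobic repressor of hypoxic genes, rose at 72 h in crz1 (0.84 ± 0.32, adjusted p = 0.0404) and was at 0.80 ± 0.32, adjusted p = 0.0572 in crz1 cnb1. The part of any regulator in the members' changes was not tested.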

How the data were processed

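PolyA RNA was sequenced in 24 libraries of 2 strains at 4 times, 3 libraries each. The authors deposited 1 table of counts per gene and 1 table of TPM, scaled by gene length and library total. Per the submitters' processing notes the counts were made with featureCounts on genome build R64, and DESeq2 was also named. Their versions, the aligner and the use of strand were not given in the sources used here, so counts of genes with antisense partners may hold reads of both strands, although no member overlaps another annotated gene. Totals of 21582317 to 22016465 counts per library limit the precision of members with few counts such as CYC7 and CYC1. No pair of replicate libraries agreed within sampling noise (lowest chi-square per degree of freedom 9.83).

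Tests on the deposited counts used edgeR 4.0.16 under R 4.3.3 (TMM scaling, filterByExpr by group, quasi-likelihood with robust estimation, 1 coefficient per group over all 24 libraries, Benjamini-Hochberg adjustment over 6089 genes, calls below 0.05). DESeq2 1.42.0 and limma 3.58.1 on log2(TPM + 1) or log2(TPM + 0.1), RLE scaling, no filter, a replicate block, fits on the compared libraries only and libraries left out served as alternatives. The edgeR steps were tested on simulated counts. Sequences came from the RefSeq genome R64 with Biopython 1.88. The members and gene lists were chosen with earlier results of these data known. Values in every library are given for the isoform pairs CYC1 and CYC7 and COX5A and COX5B, for up to 3 members per complex with the smallest p in any of the 15 comparisons, and for every member called in a change of the strain difference, of which there were none. SDH4, QCR6, QCR7, QCR8, QCR10, CYT1, COX6, COX13 and the further ATP synthase genes were named after their values were seen.

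Replicate numbers are in the labels, which do not say what they share. By the correlation of deviations from group means, with a limit of 0.1 for each pair, the numbers were taken to pair libraries in 3 comparisons: between strains at 0 h (lowest correlation 0.56), between strains at 12 h (0.169) and 12 h against 0 h in crz1 (0.114).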

Additional observations from a re-analysis of the deposited data

How the results depend on the processing

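Of 65 called changes of the 16 members given in full, refitted 905 times in all, 809 kept direction and call, 96 kept direction but missed the threshold and 0 turned round. The counts of members called that moved by more than 1.5 times were as follows, and the cause was not tested. Omitting the 3 libraries that stood apart gave 19 in crz1 at 12 h, 20 in crz1 at 72 h, 27 between strains at 48 h and 15 for the change of the strain difference at 48 h. DESeq2 gave 2 for 72 h against 12 h in crz1 cnb1, 1 and 4 between strains at 12 and 48 h, and 1 for the change of the strain difference at 72 h. With limma on log2(TPM + 1) there were 25, 18 and 19 in crz1 at 12, 48 and 72 h, 2 for 72 h against 12 h in crz1 cnb1 and 2 between strains at 72 h, and on log2(TPM + 0.1) there were 22, 18, 18, 2 and 2. On log2(TPM + 1) the median over all genes was -0.16 and -0.25 in crz1 at 12 and 48 h and 0.26 between strains at 48 h. Fits on the compared libraries only gave 6 and 23 in crz1 at 48 and 72 h, 4 for 72 h against 12 h in crz1 cnb1, 20 between strains at 72 h and 6 for the change of the strain difference at 72 h.

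With the replicate block the counts were 1 for 72 h against 12 h in crz1 cnb1, 1 between strains at 12 h and 2 at 48 h (COX7 and ATP5), and no other count moved by more than 1.5 times. Leaving out each replicate in turn gave 8 to 18, 10 to 16 and 19 to 23 in crz1 cnb1 at 12, 48 and 72 h, and 7 to 13, 8 to 18 and 7 to 11 in crz1. It gave 0 to 1 for 72 h against 12 h in each strain, 0 to 0, 0 to 1, 0 to 27 and 0 to 5 between strains at 0, 12, 48 and 72 h, and 0 to 0, 0 to 18 and 0 to 0 for the change of the strain difference at 12, 48 and 72 h. With all libraries the counts were 19, 15 and 24 in crz1 cnb1, 12, 11 and 10 in crz1, and 5 between strains at 72 h. RLE scaling and no filter left each count within 1.5 times. Depth limits CYC7 and CYC1, whose lowest counts in a library were 2 and 20.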
